A study of Mus musculus with 4 samples.

Results

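Common reference genes are mRNAs against which other mRNAs are normalized in quantitative RT-PCR. The 8 described here are Actb, Hprt, Tbp, Ppia, B2m, Ywhaz, Gusb and Tfrc, and they are 8 of the 24164 gene symbols on the array. They were taken as familiar reference genes by a rule that names no measured value. Earlier results of these data were known when they were chosen. All 8 were detected, with 14 probes in all. RNA immunoprecipitation (RIP) recovers the RNA that comes down with a protein from a lysate, and a non-specific IgG gives the background of the beads. CPEB2 binds the cytoplasmic polyadenylation element (CPE), a short U-rich motif near the end of an mRNA, and controls translation in neurons. In RIP a reference mRNA has one task, which is to come down equally with the specific and the control antibody, since the enrichment of every other mRNA is read as a ratio to it. The RIP RT-qPCR of the study took Gapdh mRNA as its non-target reference.

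The lysate came from cortical and hippocampal tissue of male C57BL/6 mice aged 8 weeks, with no genotype or drug that differed between groups. In each of 2 experiments it was divided between beads carrying CPEB2 IgG and beads carrying control IgG for 3 h, so that the 4 arrays, 2 per antibody, formed 2 pairs. In the labels, 1 free-text field of the CPEB2 IgG arrays reads CPEB3 where titles and protocol read CPEB2, and no value on the arrays can settle which antibody was used. Each array received RNA amplified from 0.2 µg, whatever amount had been recovered, and no array of the input lysate was analysed here. The ratios below are therefore between shares of the recovered RNA, and an mRNA recovered less with CPEB2 IgG cannot be told apart from one diluted by others that were recovered more.

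Ratios were taken within each experiment as CPEB2 IgG over control IgG, on the log2 scale after each array had been scaled to its 75th percentile, and a log2 ratio of 1 is a 2-fold difference. The arrays were of similar quality, with median signals of 59.0 to 76.5, 68.4% to 74.1% of spots well above background and no saturated spot. Each antibody had its own places on the slide, and the effect of place cannot be told apart from that of antibody. The neuronal marker list was detected in full (8 of 8 genes), and none of the 3 liver genes looked for as a contrast was well above background on 2 arrays. Median log2 ratios of the marker lists ran from -0.78 for erythroid cells to -0.04 for neurons, beside -0.11 over all genes, but markers of 1 cell type went both ways. Astrocyte markers had 2 higher and 3 lower of 6, from Aldh1l1 (-3.77) to Slc1a3 (3.44), and microglial markers 1 higher and 2 lower of 6, from Aif1 (-2.64) to P2ry12 (2.30). Neurons had 0 higher and 2 lower of 8, oligodendrocytes 0 and 3 of 6, endothelium 0 and 0 of 3 and erythroid cells 0 and 1 of 3. Over all genes tested, 21.2% were higher and 20.4% lower. The part of cell makeup in the ratios below was not tested.

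The 8 reference genes did not behave alike. With the brightest probe for each gene, limma called 2 of them higher with CPEB2 IgG, Tbp and Tfrc, and 3 lower, Actb, Ppia and Ywhaz, while Hprt, B2m and Gusb passed in neither direction. Among all 19698 genes tested, 21.2% were higher and 20.4% were lower, and with 8 genes the counts of 2 and 3 were not read as more than that background. Their log2 ratios spanned 4.94, from -2.15 for Ywhaz to 2.79 for Tbp, which is a 30.7-fold difference between references. In each experiment alone the span was 4.86 and 5.16. The sign of each of the 8 ratios was the same in both experiments. How many of all genes kept their sign was not counted, so this is a description only. Within 1.5-fold of no difference lay 3 of the 8, a share near the 41.7% of all genes.

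**Figure D1:**
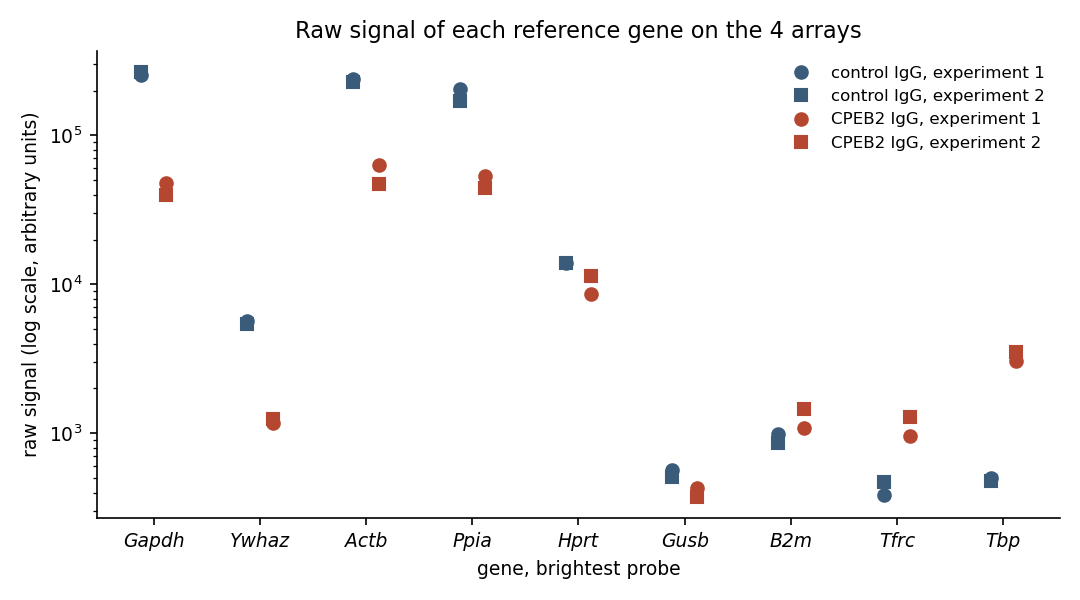
Raw signal (log axis, arbitrary units) of the brightest probe of each of the 8 reference genes and of Gapdh on each of the 4 arrays, ordered by log2 ratio; circles are experiment 1, squares experiment 2, blue control IgG and red CPEB2 IgG. Heights of different genes are not comparable, since each has its own probe. Within a gene the red points lie below the blue for Gapdh, Ywhaz, Actb, Ppia, Hprt and Gusb and above them for B2m, Tfrc and Tbp. How many of all genes separate in this way was not counted.

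Probes matter for this question, because 4 of the 8 genes carry more than 1 and the probes of a gene did not always tell the same story. Stretches of at most 30 bases of the probes of Ywhaz, Tbp and Tfrc are shown for that reason, read 5′ to 3′ from the array annotation in the sense of the mRNA. Capitals mark a CPE, searched as TTTTAT or TTTTAAT in the sense letters of the probe.
Ywhaz A_55_P1987245, bases 1 to 30 of the probe: taaaaatgagctggtgcagaaggccaagct
Ywhaz A_52_P225260, bases 1 to 30: tgcaaaaacagctttcgatgaagccattgc
Ywhaz A_66_P120770, bases 15 to 44: attgaagtggacTTTTATggggtggggggt
Tbp A_51_P461828, bases 1 to 30: gccaagagtgaagaacaatccagactagca
Tbp A_55_P2032034, bases 1 to 30: gtacatacttttctttcttcagagtactct
Tfrc A_65_P06446, bases 1 to 30: tcctgctagatggaacatagattcttcatg
Tfrc A_51_P167876, bases 1 to 30: atctctatatagagacagcaattggattag
Tfrc A_52_P228236, bases 1 to 30: tgagcaagatcacattaacaaagactagtt
Within each gene they run from the most upstream to the most downstream probe by the array's mm9 positions. The Ywhaz probes lie at chr15:36720668-36720727, chr15:36705040-36705180 and chr15:36701205-36701264. Those of Tbp lie at chr17:15650578-15651245 and chr17:15654250-15654309, and those of Tfrc at chr16:32620470-32620529, chr16:32624877-32625093 and chr16:32632255-32632314. A probe has 60 bases, so the middle probes of Ywhaz and Tfrc and the first of Tbp, whose positions span 141, 217 and 668 bases, cover more than 1 stretch of the genome. Whether the other probes fall in coding or untranslated exons was not placed here. A CPE stood in 1 of the 14 probes, the most downstream of Ywhaz, and in 5.21% of all 33256 annotated probes. These letters cover only what a probe reads, and say nothing of CPEs elsewhere in the mRNAs.

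The 3 genes that fell are the reference genes of the cytoskeleton, of protein folding and of the 14-3-3 family. Actb, cytoplasmic beta-actin, gave raw signals of 63746 and 46877 with CPEB2 IgG in experiments 1 and 2, against 240207 and 227499 with control IgG. Both CPEB2 IgG arrays lay far below both control arrays. The log2 ratio was -2.04 ± 0.30 (SD, n = 2), a 4.12-fold lower share, with a limma SE of 0.25 and an adjusted p of 0.00649. Its probe is at chr5:143665422-143665481. Ppia, cyclophilin A, a peptidyl-prolyl isomerase, gave 53338 and 44370 with CPEB2 IgG against 205162 and 171276 with control IgG. This is the same picture as for Actb, with a log2 ratio of -1.89 ± 0.05 (SD, n = 2; limma adjusted p = 0.00644) from a probe at chr11:6319737-6319796. For both genes 1 probe of 1 spot per array carries the value, and Ppia and Actb have copies in the genome that a probe of this length may also read. No other probe on the array shared 25 bases with any probe of the 8 genes.

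Ywhaz, a 14-3-3 adaptor protein that binds phosphorylated partners, was low by its upstream probes only. The brightest, A_55_P1987245, gave 1174 and 1238 with CPEB2 IgG against 5636 and 5455 with control IgG. Replicates differed little beside the gap between antibodies, and the log2 ratio was -2.15 ± 0.05 (SD, n = 2; limma adjusted p over genes 0.00566). The probe in the middle, A_52_P225260, gave 569 and 623 against 2220 and 2101, a log2 ratio of -1.81 ± 0.11 (limma adjusted p over all annotated probes 0.00575). With the most downstream probe, A_66_P120770, which holds the CPE and whose mean log2 signal fell just short of that of the brightest, signals were 2922 and 2631 with CPEB2 IgG against 2570 and 1955 with control IgG. Here both CPEB2 IgG arrays lay above both control arrays, with a log2 ratio of 0.36 ± 0.13 that did not pass the test (limma adjusted p = 0.286 over annotated probes). Ywhaz thus holds the lowest ratio of the 8 by 1 probe and a ratio above 0 by another. The array annotation assigns A_66_P120770 to another transcript record than the other Ywhaz probes. The part of transcript forms in this difference was not tested.

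The 2 genes that rose are a transcription factor and a membrane receptor. Tbp, the TATA-binding protein of the general transcription machinery, gave 3050 and 3531 with CPEB2 IgG against 504 and 479 with control IgG by its brightest and most downstream probe, A_55_P2032034. The antibodies were separated widely, and the log2 ratio was 2.79 ± 0.16 (SD, n = 2; limma SE 0.24, adjusted p = 0.00543), a 6.93-fold higher share. Its ratio lay at percentile 98.1 of all genes tested. Its upstream probe, A_51_P461828, is printed as 10 spots on each array and gave 84.6 and 125 with CPEB2 IgG against 87.1 and 76.6 with control IgG. Those groups overlapped, and the log2 ratio of 0.39 ± 0.49 did not pass (limma adjusted p = 0.325 over annotated probes). These signals lay near the median signals of the arrays, 59.0 to 76.5, and the part of dimness in that ratio was not tested.

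Tfrc, the transferrin receptor that takes up iron, gave 963 and 1290 with CPEB2 IgG against 383 and 470 with control IgG by A_52_P228236, the most downstream and brightest of 3 probes, read from 10 spots per array. Every CPEB2 IgG array lay above every control array, and the log2 ratio was 1.45 ± 0.05 (SD, n = 2; limma adjusted p = 0.0104), a 2.72-fold higher share. The call was lost without the control IgG array of experiment 1 (log2 ratio 1.27, adjusted p = 0.0533). The upstream probe A_65_P06446 gave 143 and 183 against 164 and 131, which overlap, with a log2 ratio of 0.19 ± 0.44 that did not pass (limma adjusted p = 0.611 over annotated probes). The probe between them, A_51_P167876, gave 306 and 33.4 against 19.4 and 17.0. It was well above background on 3 of the 4 arrays, and its log2 ratios of 4.06 and 1.00 differed more than those of any other probe of the 8 genes. Its mean of 2.53 passed over annotated probes with the experiment as a block (limma adjusted p = 0.0419), whereas a fit without the block gave a limma adjusted p of 0.114.

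Hprt, Gusb and B2m were not called. Hprt, which salvages purine bases for nucleotide synthesis, gave 8572 and 11391 with CPEB2 IgG against 13974 and 13952 with control IgG from a probe of 10 spots at chrX:50374757-50374816, of which 32 values over the 4 arrays were kept after marked spots were left out. Both CPEB2 IgG arrays were lower, by a log2 ratio of -0.45 ± 0.25 (SD, n = 2; limma adjusted p = 0.205). Gusb, the lysosomal beta-glucuronidase, gave 432 and 376 against 566 and 507 by its brightest probe, A_52_P160936, at chr5:130475555-130475614. The difference had the same sign in both experiments at -0.36 ± 0.07, with an adjusted p of 0.272. Its downstream probe, A_51_P211491, at chr5:130465133-130465192 and read from 10 spots, gave 151 and 163 against 157 and 188, a log2 ratio of -0.08 ± 0.15 (limma adjusted p = 0.819 over annotated probes). The array annotation assigns the brightest and the downstream probe of Gusb to different transcript records.

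B2m, the light chain of MHC class I molecules, gave 1087 and 1466 with CPEB2 IgG against 981 and 856 with control IgG from a probe of 2 spots at chr2:121978401-121978460. The arrays of the 2 antibodies did not overlap, and the log2 ratio was 0.51 ± 0.40 (SD, n = 2; limma adjusted p = 0.183). Its 2 experiments, at 0.23 and 0.80, differed more than those of the other 7 brightest probes. A p above the threshold does not show that these 3 mRNAs came down equally: the limma SE of about 0.23 to 0.26 leaves room for differences of the size measured.

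**Figure D2:**
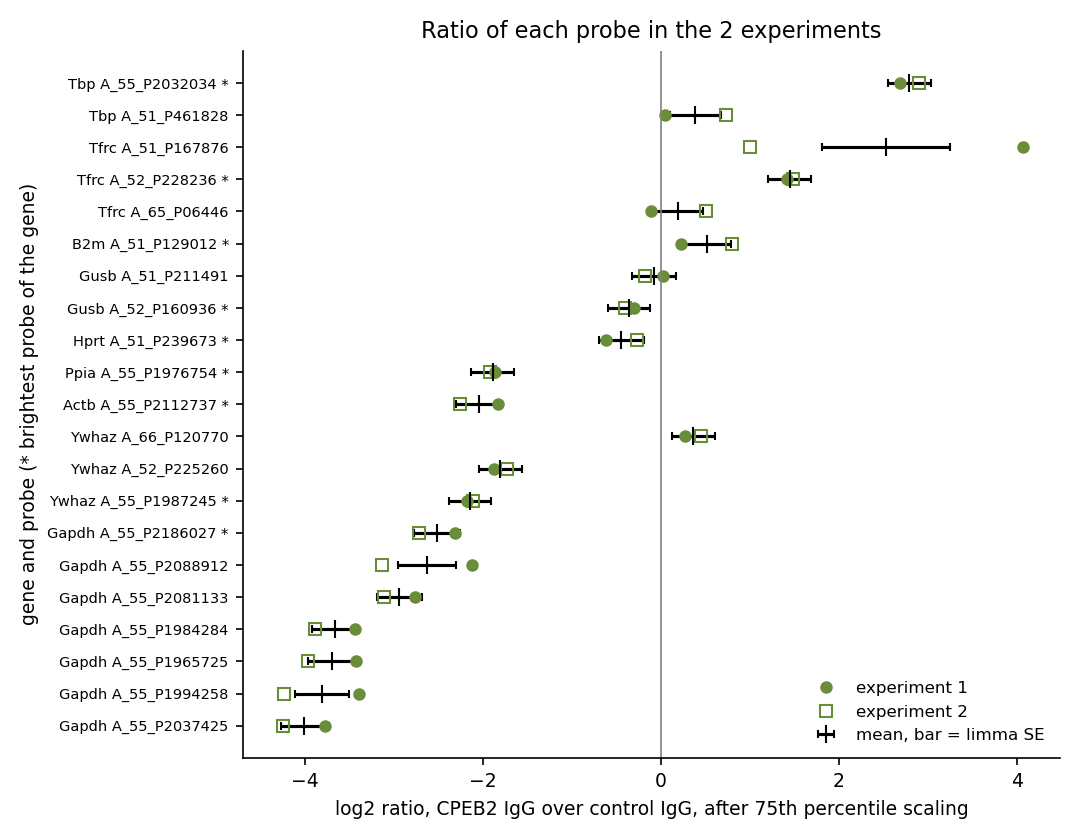
Log2 ratio of CPEB2 IgG over control IgG after 75th percentile scaling (horizontal axis) for each probe of the 8 reference genes and of Gapdh; filled circles are experiment 1, open squares experiment 2, and black ticks with bars the mean and the limma SE. The most downstream Ywhaz probe lies right of 0 while the other Ywhaz probes lie left of -1.5. The Tbp and Tfrc probes are spread over more than 2 log2 units, for Tfrc only through the dim probe A_51_P167876.

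Taken probe by probe, 3 of the 14 were called higher and 4 lower, with 19.9% and 21.6% of 26710 annotated probes as the background, and 7 passed in neither direction. In 3 of the 4 genes with several probes these differed more than in most genes. The span over probes was 2.51 for Ywhaz, 2.41 for Tbp, 2.34 for Tfrc and 0.28 for Gusb. Over the 5525 genes with several detected probes the median was 0.79, and 14.2% of them exceeded 2. The span of Tfrc rests on the dim probe A_51_P167876 (2.53), whose experiments disagreed most. Its other probes, at 0.19 and 1.45, stood only 1.25 apart. Position along the gene ran one way in all 4, with a higher ratio at the most downstream than at the most upstream probe, by 2.51 in Ywhaz, 2.41 in Tbp, 1.25 in Tfrc and 0.28 in Gusb. The same order held for 71.9% of the 5412 genes whose probes could be ordered on 1 strand, with a median difference of 0.48. In Tbp and Tfrc the most upstream probe was also dimmer than the most downstream, so position and brightness cannot be told apart there. In Gusb the upstream probe was the brighter. With 4 genes the order was not read as more than that share, and the parts of RNA length and of probe brightness in these differences were not tested.

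Among the spots kept, the array was precise. For the 4 probes printed as 10 spots, in Hprt, Gusb, Tbp and Tfrc, the SD of log2 signal over the kept spots of an array was 0.02 to 0.13, with a median of 0.09. These SDs and the ranges below leave out spots marked non-uniform or outliers, which narrows them. Hprt spots ran from 8197 to 9080 and from 11221 to 11734 on the CPEB2 IgG arrays and from 13105 to 15264 and from 13498 to 14534 on the control arrays. The kept raw spots of the CPEB2 IgG arrays thus did not overlap, and these arrays stood 0.41 apart in scaled log2 signal, whereas the control arrays stood 0.06 apart. Whether the array, the pull-down or the experiment made that gap was not tested. For Tfrc the spots of the brightest probe ran from 876 to 1026 and from 1198 to 1406 with CPEB2 IgG, above the control ranges of 331 to 442 and 434 to 524.

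Stability over the 4 arrays was described with the geNorm M, the SD of the log2 difference between a gene and each of the other 7, averaged. A lower M is steadier relative to the other 7, and genes that shift together lower the M of each other. Gusb (0.95) and Hprt (0.95) were lowest, followed by B2m (1.07), Ppia (1.17), Actb (1.24), Ywhaz (1.28), Tfrc (1.38) and Tbp (2.03). Within an antibody, where only the difference between experiments enters, M was 0.18 to 0.31 for all 8, and Tbp, the least steady over 4 arrays, was among the steadiest (0.19). Most of the instability therefore lay between the antibodies and not between the experiments.

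Taken in pairs, the genes fell into a few groups. Of 28 pairs, 4 had log2 ratios within 1.5-fold of each other: Hprt with Gusb (difference 0.09), Actb with Ywhaz (0.10), Actb with Ppia (0.15) and Ppia with Ywhaz (0.26). The SD within an antibody for the same pairs was 0.32, 0.26, 0.13 and 0.20, so the order inside each group is not resolved. Another 21 pairs differed by more than 2-fold and 12 by more than 4-fold, against SDs within an antibody of 0.06 to 0.47 over all pairs. By the brightest probes the order of the 8 falls into Ywhaz, Actb and Ppia, then Hprt and Gusb, then B2m, Tfrc and Tbp. B2m stood 0.87 above Gusb (SD within an antibody 0.32) and 0.96 above Hprt (0.10), Tfrc 0.93 above B2m (0.25) and Tbp 1.35 above Tfrc (0.21). This order rests on the brightest probe of each gene. With the mean of the detected probes Tbp (1.59) and Tfrc (1.39) came close to each other, and Ywhaz (-1.20) left Actb (-2.04) and Ppia (-1.89).

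**Figure D3:**
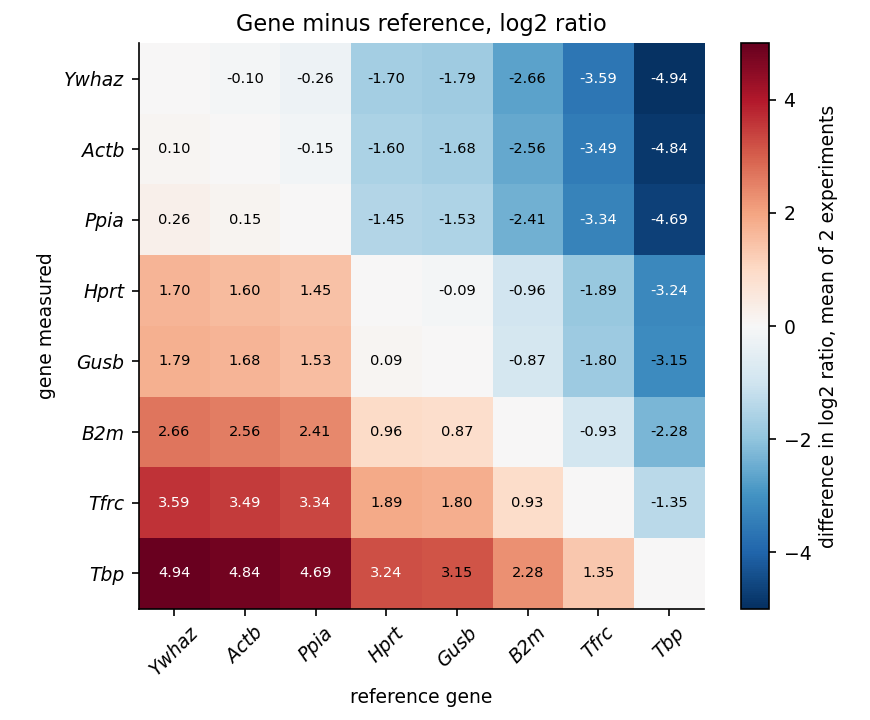
Difference in log2 ratio between each gene (rows) and each reference (columns), mean of the 2 experiments, with genes ordered by their own ratio; red is higher than the reference and blue lower. Near-white blocks join Ywhaz, Actb and Ppia (differences of 0.10 to 0.26) and Hprt with Gusb (0.09).

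Gapdh, a glycolytic enzyme and the reference of the RIP RT-qPCR, fell further than any of the 8. Its brightest probe gave 48250 and 39694 with CPEB2 IgG against 253696 and 266689 with control IgG, a log2 ratio of -2.52 ± 0.29 (SD, n = 2; limma adjusted p = 0.00543). All 7 of its probes were called lower, from -4.02 to -2.52. The array annotation places the brightest on chromosome X and another on chromosome 8, with 5 on chromosome 6, and 7 probes of other names share at least 25 bases with a Gapdh probe, with log2 ratios of -3.74 to -2.55. What the arrays read as Gapdh may therefore come from several copies.

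Relative to Gapdh within each experiment, all 8 genes were higher. Closest were Ywhaz at 0.37 ± 0.34, Actb at 0.47 ± 0.01 and Ppia at 0.63 ± 0.25 (SD, n = 2), from the brightest probe of each gene, and that of Gapdh is the least lowered of its 7. Centring within bins of probe GC content turned Ppia to -0.12 and gave Actb 0.23. Hprt stood at 2.07 ± 0.54, Gusb at 2.16 ± 0.22, B2m at 3.03 ± 0.69, Tfrc at 3.96 ± 0.34 and Tbp at 5.31 ± 0.45. With the mean of the detected probes Actb was closest at 1.28, followed by Ppia at 1.43, Ywhaz at 2.13, Hprt at 2.88, Gusb at 3.11, B2m at 3.84, Tfrc at 4.72 and Tbp at 4.91, so that all 8 were still higher and Ywhaz was no longer closest.

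The choice of reference was followed in the mRNAs that were also measured by RIP RT-qPCR. That assay used hippocampal lysate alone, whereas the arrays held RNA from cortex and hippocampus. With Gapdh as its reference, the paper reports CPEB2 binding for Slc17a6 and Syt1 mRNA and none for Slc17a7 mRNA. In the paper's own list from these arrays, Slc17a6 and Syt1 were enriched more than 1.5-fold, and Slc17a7 was not enriched. By the array scaling, Slc17a6, the vesicular glutamate transporter VGLUT2, gave 1097 and 1232 with CPEB2 IgG against 288 and 334, a log2 ratio of 1.96 ± 0.08 (SD, n = 2; limma adjusted p = 0.00618). Slc17a7, its relative VGLUT1, gave 914 and 1136 against 939 and 1246, a log2 ratio of -0.03 ± 0.11 (limma adjusted p = 0.923), and its groups overlap. Syt1, the calcium sensor of transmitter release, gave 62378 and 60340 against 53571 and 42992, a log2 ratio of 0.41 ± 0.15 (limma adjusted p = 0.225). This is 1.33-fold, short of the 1.5-fold by which the paper listed it. Its log2 ratio passed 1.5-fold with quantile normalization (0.72), median centring (0.63) and centring within GC bins (0.61), and with no other whole-array scaling. The cause of that difference was not tested.

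Against Gapdh the log2 ratios of the 3 mRNAs became 4.48 for Slc17a6, 2.49 for Slc17a7 and 2.93 for Syt1. The array value for Slc17a7 thus differs from the RT-qPCR outcome in the paper, which came from other tissue and another method. The cause of that difference was not tested. With Ywhaz the values of the 3 mRNAs were 4.11, 2.12 and 2.56, and with Ppia 3.85, 1.86 and 2.30. Actb gave 3.84 and 4.16 for Slc17a6 in the 2 experiments, 2.01 for Slc17a7 and 2.45 for Syt1. With Hprt they were 2.40, 0.41 and 0.85, and with Gusb 2.32, 0.33 and 0.77. B2m gave 1.44 for Slc17a6, -0.55 for Slc17a7 and -0.11 for Syt1. With Tfrc they were 0.51, -1.48 and -1.04, and with Tbp -0.83, -2.83 and -2.39. Relative to the mean of the 8 genes the values were 2.22, 0.23 and 0.67. Slc17a6 was thus more than 1.5-fold up with 7 of the 9 single references (the 8 and Gapdh), Syt1 with 6 and Slc17a7 with 4, while Slc17a7 and Syt1 were more than 1.5-fold down with 2 each and Slc17a6 with 1. Differences between the 3 mRNAs do not depend on the reference, and Slc17a6 stayed above Syt1 and Syt1 above Slc17a7 with each.

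**Figure D4:**
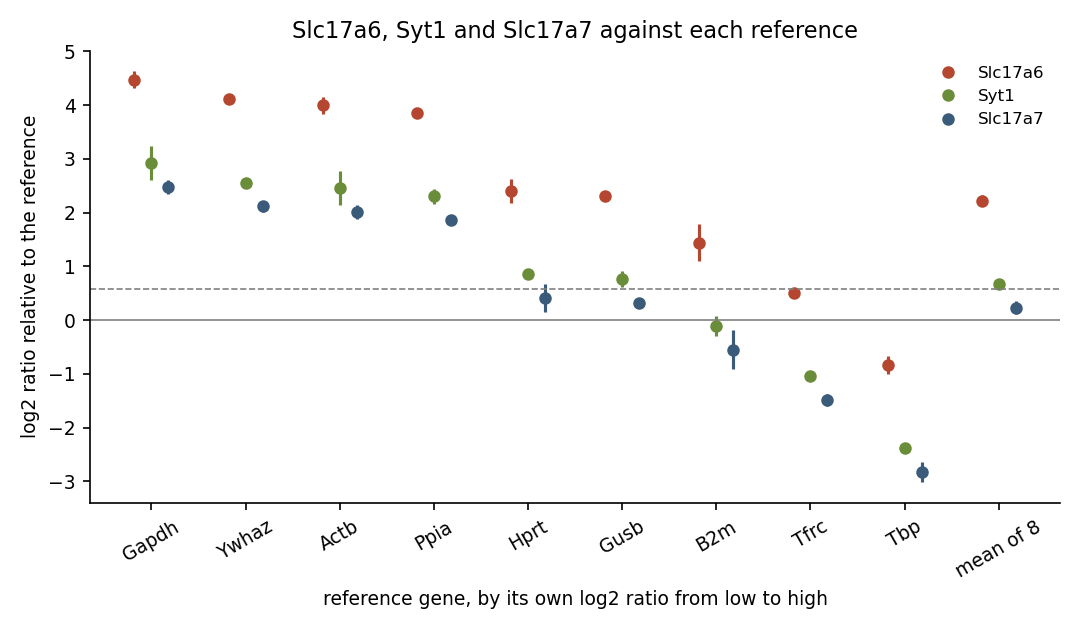
Log2 ratio of Slc17a6, Syt1 and Slc17a7 relative to each reference (points, mean of 2 experiments; vertical lines join the experiments), with references ordered by their own log2 ratio; the solid line marks no difference and the dashed line 1.5-fold. From Gapdh to Tbp each mRNA drops by 5.31 log2 units, Slc17a7 from 2.49 to -2.83.

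The count of enriched genes moved with the reference in the same way. The study's methods name thresholds of fold enrichment and raw signal, which were read here as a mean fold change over 1.5 and a raw signal over 1000 on either CPEB2 IgG array, in any probe of a gene. Of 7033 genes bright enough, 3358 passed (47.7%), Tbp and Tfrc among them, and 3016 when the fold change was asked of each experiment. Tfrc passed the signal threshold only on the CPEB2 IgG array of experiment 2 (1290, beside 963 in experiment 1). With median centring B2m and Ywhaz passed too, Ywhaz through its downstream probe although its brightest probe is lower. Turned round, with the signal asked of a control IgG array and a fold change below 1/1.5, they were met by 2765 of 6703 genes (41.3%), Actb, Ppia and Ywhaz among them. When each array was scaled to 1 gene in place of the 75th percentile, 6776 passed with Gapdh, 6538 with Ywhaz, 6457 with Actb and 6339 with Ppia, so that nearly all bright genes counted as enriched. Hprt (4211), Gusb (4040) and the mean of the 8 (3862) gave counts nearer to that of the array scaling. B2m gave 2399, Tfrc 979 and Tbp 75. Calls by limma followed, with 18253 genes higher and 43 lower when scaled to Gapdh, 5405 and 1788 with Hprt, 5764 and 2689 with Gusb, and 72 and 18452 with Tbp, against 4174 and 4020 in the array scaling. A gene used as the reference has a ratio of 0 by construction.

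**Figure D5:**
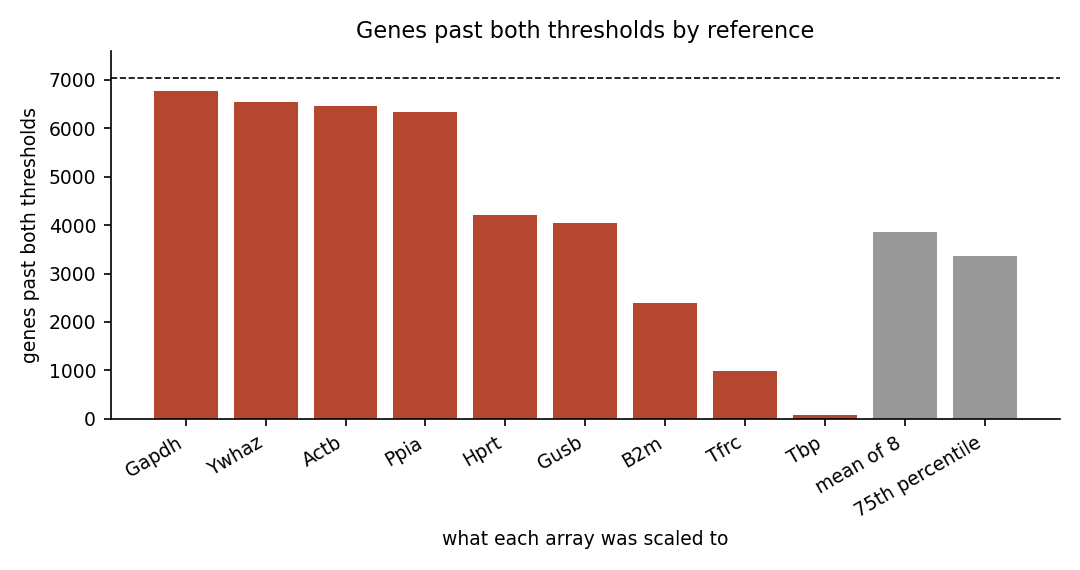
Number of genes past both thresholds (mean fold change over 1.5, raw signal over 1000 with CPEB2 IgG) when each array was scaled to 1 reference gene (red) or to the mean of the 8 genes or the 75th percentile (grey); the dashed line marks the 7033 genes bright enough to pass. Counts fall from 6776 with Gapdh to 75 with Tbp, with 3358 by the 75th percentile.

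Among 36 other genes used as references elsewhere, Gapdh included, 4 were higher, 18 lower and 14 not called, with a median log2 ratio of -1.06 beside -0.11 for all genes, and 7 lay within 1.5-fold. Of all genes tested, 21.2% were higher, 20.4% lower and 41.7% within 1.5-fold. Among the lowest were Ubb, which encodes ubiquitin (-3.77 ± 0.55), and the glycolytic Pgk1 (-3.23 ± 0.44; SD, n = 2; limma adjusted p = 0.00543 for each). Ubb gave 20089 and 12954 with CPEB2 IgG against 221786 and 235307 with control IgG. Highest was Ppib, a cyclophilin of the endoplasmic reticulum, with 13901 and 10941 against 1495 and 1594 and a log2 ratio of 3.05 ± 0.35 (limma adjusted p = 0.00543). Next came the nuclear import factor Ipo8 (1.42 ± 0.84, limma adjusted p = 0.0340) and Rer1, which returns membrane proteins to the endoplasmic reticulum (1.41 ± 0.16, limma adjusted p = 0.0116).

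Steadiest in both experiments were Ywhae, Polr2a and Oaz1. Ywhae, a 14-3-3 protein, gave 37742 and 45575 with CPEB2 IgG against 44753 and 49456 with control IgG, a log2 ratio of -0.13 ± 0.05 (limma adjusted p = 0.688). Polr2a, the large subunit of RNA polymerase II, gave 733 and 693 against 646 and 705 (0.13 ± 0.19, limma adjusted p = 0.692). Oaz1, an inhibitor of polyamine synthesis, gave 53896 and 49750 against 48005 and 41316 (0.27 ± 0.03, limma adjusted p = 0.394). They were picked as the steadiest of 36, so their closeness to 0 is a description.

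Relatives of the 8 genes lay over a wide range of ratios. Beside their counts, 21.2% of all genes tested were higher and 20.4% lower, and no list was tested against these shares. Other actins gave 0 higher and 2 lower of 4 tested, from Acta1 (-1.29) to Actg2 (0.41), beside Actb at -2.04. Cyclophilins gave 5 higher and 2 lower of 14, from Ppil2 (-1.94), near Ppia, to Ppib (3.05). In the 14-3-3 family 1 of 6 was lower and 0 higher, from Ywhab (-1.08) to Ywhaq (-0.09), all above the upstream Ywhaz probes. Partners of Tbp in TFIID and the TBP-like genes gave 9 higher and 0 lower of 14, with a median log2 ratio of 0.99, from Taf7 (-0.81, not called) to Taf4a (3.01).

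For the pathways of the other genes, purine salvage and degradation had 2 higher and 4 lower of 11, from Xdh (-1.64), which makes uric acid, to Dguok (2.98), a mitochondrial nucleoside kinase, around Hprt at -0.45. MHC class I presentation had 4 higher and 1 lower of 10, from H2-T23 (-1.08) to H2-M3 (2.31). Lysosomal glycosidases and sulfatases had 8 higher and 1 lower of 17, from Fuca1 (-0.99) to Manba (2.29), with Gusb at -0.36. Iron uptake and storage had 2 higher and 0 lower of 11, from Ncoa4 (-0.85, not called) to the iron exporter Slc40a1 (2.99), with Tfrc at 1.45. The shares over all genes, 21.2% higher and 20.4% lower, are the background for these counts too.

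The mean of the 8 genes, taken as a composite reference, had a log2 ratio of -0.27 ± 0.06 (SD, n = 2), with -0.31 and -0.22 in the experiments, since genes that were lower and genes that were higher offset each other. The genes whose profile over the 4 arrays was most like that of this mean were Anapc4, A030001D20Rik and Olfr39, with summed absolute differences of 0.05, 0.05 and 0.06 in centred log2 signal and ratios of -0.24, -0.28 and -0.29.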

How the data were processed

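RIP-microarray values were taken from 4 one-color Agilent SurePrint G3 Mouse GE 8x60K arrays of 1 slide. The authors deposited scanner output of Agilent Feature Extraction 10.5.1.1, an intensity per spot after the software's background correction, with no scaling between arrays; gene symbols and mm9 positions are those of the array annotation. Members and gene lists were chosen with earlier results of these data known.

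Control spots and spots marked non-uniform or outliers were left out, spots of a probe were averaged, and 66 of 55681 probes with no value on some array were dropped. The log2 signal was scaled to each array's 75th percentile. For each gene the brightest probe well above background on at least 2 of the 4 arrays was used. limma 3.58.1 (R 4.3.3) was fitted to 19698 genes with a block for the experiment, p-values were adjusted over all of them by Benjamini-Hochberg with a threshold of 0.05, and the same was done for 26710 annotated probes. Pairing comes from the methods, by which both antibodies shared a lysate. Arrays of 1 experiment deviated together only weakly (correlation 0.20). The fit leaves 1 residual degree of freedom and, in a test on simulated data, made calls where many genes changed but not where few did. An exact permutation test of 2 against 2 arrays that ignores the pairing cannot go below p = 0.333 (two-sided). One that keeps the 2 pairs has fewer arrangements and cannot reach p under 0.05 either. The number of arrays limits the precision. Python 3.11.15 with numpy 2.4.6, pandas 2.3.3 and matplotlib 3.10.9 was used for the rest.

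Genes named are the 8 references, Gapdh and the genes of the RT-qPCR, the 3 highest, 3 lowest and 3 steadiest other references, the extremes of each list, and the 3 genes most like the mean of the 8. Of these, 1 gene is not reported here. Alternatives covered scaling, spike-in probes, probe GC content, normexp with an offset of 50, marked spots, filters, choice of probe, the block, an intensity trend, thresholds and arrays left out; single arrays left out and each probe in turn were added after seeing the data.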

Additional observations from a re-analysis of the deposited data

How the results depend on the processing

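The 3 genes called lower stayed called lower, and Tbp higher, under each whole-array scaling, each filter and the probe average tried with limma and with any 1 array left out, which does not hold for scaling to single reference genes; the members called higher numbered 1 to 2 and those called lower 3 when single arrays were left out. With 1 array left out its antibody is assumed to vary like the other. Leaving out the replicate block gave 4260 genes higher, with 2 of the 8, and 3999 lower, with 3 of the 8, and changed no call of the 8 genes. Median centring raised the median ratio of all genes from -0.11 to 0.11 and gave 5212 higher and 3301 lower (61.2% higher, beside 50.9%), centring within GC bins raised it to 0.08 and quantile normalization to 0.02, and the 75th percentile of probes detected on all arrays lowered it to -0.22. With no filter on dim probes 2265 genes were higher and 1837 lower, and with a raw signal above 1000 on an array 2642 were lower; fewer or more genes tested is part of each setting. Leaving arrays out gave 2887 to 4227 genes higher, 2390 to 4251 lower, 3001 to 3585 past both thresholds, 1 to 3 of the 8 genes past them and a range of 4.86 to 5.16. The lowest of the 8 past both thresholds, 1, came without experiment 2, and the lowest count of genes lower without the control IgG array of experiment 1 (2390; 2530 without that of experiment 2). Of the 8, 4 passed both thresholds with median centring (B2m, Tbp, Tfrc and Ywhaz), 3 with spike-in scaling (B2m added) or GC bins (Ywhaz added), and 1 with a raw signal above 2000 (Tbp). The range over the 8 was 4.69 with centring within GC bins and 3.63 with the mean of the detected probes; the first shifts probes by GC content and the second averages probes that differ. Genes past both thresholds were 6457 scaled to Actb, 75 to Tbp, 6339 to Ppia, 6538 to Ywhaz, 979 to Tfrc and 6776 to Gapdh. Genes higher and lower were 16793 and 121 scaled to Actb, 72 and 18452 to Tbp, 16588 and 236 to Ppia, 17372 and 124 to Ywhaz, 1030 and 14524 to Tfrc and 18253 and 43 to Gapdh, with 1875 higher for B2m and 1788 lower for Hprt. By their most upstream probes, which were dimmer than the most downstream, Tbp (0.39) and Tfrc (0.19) were not called. Directions turned for Ywhaz with probe A_66_P120770 (0.36), for Ppia relative to Gapdh with centring within GC bins (-0.12), and for Slc17a7, near 0, with median centring (0.19), spike-in scaling (0.0583), GC bins (0.17), without experiment 2 (0.0446), without the CPEB2 IgG array of experiment 1 (0.13) and without the control array of experiment 2 (0.20); the cause was not tested.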
